A study of Mus musculus with 14 samples.

Results

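The 10 genes described here are H2-Aa, H2-Ab1, H2-Eb1, H2-DMa, H2-DMb1, H2-Oa, H2-Ob, Cd74, Ciita and Ifi30, mouse genes of the MHC class II antigen presentation pathway. They were listed by symbol, with earlier results of these data known. Of these 10 genes, 8 had at least 1 probe set that the array's annotation gives to that symbol alone, 12 probe sets in all, out of 12393 genes and 22626 probe sets tested. H2-DMb1 and H2-Ob have only probe sets whose annotation names a second symbol, and those are not used here. Expression was measured on Affymetrix arrays in bone marrow cells (BMCs) sorted by FACS as Sca1+/cKit-, a gate that keeps cells carrying the Sca1 surface antigen and leaves out those carrying the stem cell factor receptor cKit. Instigator arrays (n = 5) came from mice bearing a BPLER tumour, grown from a transformed human breast epithelial line and called instigating by the submitters. Non-instigator arrays (n = 5) came from mice bearing a size-matched PC3 tumour, grown from a human prostate cancer line and called non-instigating. Matrigel arrays (n = 4) came from mice carrying Matrigel, a basement membrane extract, without a tumour. Neither the strain, age and sex of the hosts nor whether an array stands for 1 mouse or a pool is stated in the labels, so the p-values measure the spread between these arrays, which may be technical. Human tumour lines are grown in mice that lack part of adaptive immunity, and the lymphocytes that such a host keeps bear on how far its marrow models that of an intact mouse.

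MHC class II molecules are surface heterodimers that show peptides from ingested protein to CD4+ T cells. In marrow they are carried mainly by B cells, dendritic cells and some monocytes. H2-Aa encodes the alpha chain and H2-Ab1 the beta chain of the H2-A (I-A) molecule, and H2-Eb1 the beta chain of H2-E (I-E). Cd74 is the invariant chain, which fills the groove of a new dimer and guides it to the endosome. There Ifi30, a thiol reductase also called GILT, opens disulphide bonds of ingested proteins, and the H2-DM dimer (H2-DMa with H2-DMb1) exchanges the last invariant chain fragment for a peptide. The H2-O dimer (H2-Oa with H2-Ob) inhibits H2-DM and is found chiefly in B cells and some dendritic cells. Ciita is the transactivator that the promoters of most of these genes need. It is recruited by the RFX and NF-Y factors at the X and Y boxes.

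The promoter stretches below are shown because the X and Y boxes are the sequence features through which Ciita acts on these genes. RefSeq promoter windows (build GRCm38.p6, from 250 bases before to 50 bases after an annotated start) were at hand for 7 of the 10 genes, in 8 windows, and H2-Ab1, Cd74 and Ciita have no entry in that table. Capitals mark the core of the X box, searched as GNAAC, and the Y box, searched as GATTGG, on either strand, the X core first and with 15 to 40 bases between, so that the motifs cannot overlap. These letters were chosen after the windows had been read. Both were present in windows of 5 of the 7 genes, always on the gene's strand, against 1.65% of the 27025 genes with a window and 1.45% of the 32851 windows. The stretches lie on chromosome 17, where the class II genes neighbour each other, at chr17:34287857-34287919 (minus strand) for H2-Aa and, on the plus strand, at chr17:34305761-34305822 for H2-Eb1, chr17:34092288-34092350 for H2-Oa, chr17:34238803-34238862 for H2-Ob and chr17:34153082-34153144 for H2-DMb1.
H2-Aa: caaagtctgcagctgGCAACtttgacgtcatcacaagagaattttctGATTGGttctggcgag
H2-Eb1: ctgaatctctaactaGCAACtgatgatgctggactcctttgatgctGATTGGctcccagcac
H2-Oa: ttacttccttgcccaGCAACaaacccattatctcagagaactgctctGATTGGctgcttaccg
H2-Ob: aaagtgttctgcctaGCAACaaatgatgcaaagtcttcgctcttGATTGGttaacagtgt
H2-DMb1: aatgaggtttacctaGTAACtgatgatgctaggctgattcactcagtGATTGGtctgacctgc
The spacing between the X core and the Y box was 27 bases in H2-Aa, H2-Oa and H2-DMb1, 26 in H2-Eb1 and 24 in H2-Ob, and the X core began 76 to 94 bases before the start. The window of Ifi30 held no such pair of letters. Neither did the 2 windows of H2-DMa, which begin at chr17:34122582 and chr17:34125268. Both lie inside the span listed for that gene, chr17:34119693-34139101. The sequence around the listed start of H2-DMa was thus not searched. The Y box letters alone occurred in 16.1% of all windows. A match is a run of letters and was not tested as a binding site.

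Some arrays stood apart before any gene was compared. On Instigator 4 the signal of the 5' control probe sets lay far below that of the 3' ones, with a 5' minus 3' log2 difference of -3.41 for beta-actin (-0.81 to -0.51 on the other 13 arrays) and of -4.03 for Gapdh (-1.16 to -0.73 on the others), a sign of shortened RNA or cDNA. Matrigel 3 had the highest median, 7.18 against 6.90 to 7.01 on the other arrays in log2 intensity. The array titled Instigator 5 carries a description that names the PC3 non-instigating tumour, while its title and source name the instigating one, and it was kept with the Instigator arrays. Ptprc, the leukocyte antigen CD45, averaged 11.38, 11.41 and 11.37 in Instigator, Non-instigator and Matrigel arrays in log2 intensity, and the Sca1 gene Ly6a is not read at a probe set of its own. Kit, which the gate selects against, differed by 0.06 ± 0.22 (SE) between Instigator and Matrigel arrays. All values below are log2 of the deposited intensity, each read at its own probe set, and levels are not compared between probe sets.

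In Instigator arrays, H2-Aa, H2-Ab1 and Cd74 had lower means than in Matrigel arrays, by 0.45 to 0.88 on the log2 scale depending on the probe set, apart from a second H2-Aa probe set with a difference of -0.38. H2-Eb1, H2-DMa, H2-Oa, Ifi30 and both Ciita probe sets differed by -0.24 to 0.03. No difference passed the test. Across the 22626 probe sets, limma with Benjamini-Hochberg adjustment called 0 in any of the 3 comparisons (0%), and 0 of the 12 class II probe sets. The smallest adjusted p among them was 0.442 for Instigator against Matrigel, where the smallest over all probe sets was 0.439. Failing this test does not show that the groups were alike at a class II gene.

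**Figure D1:**
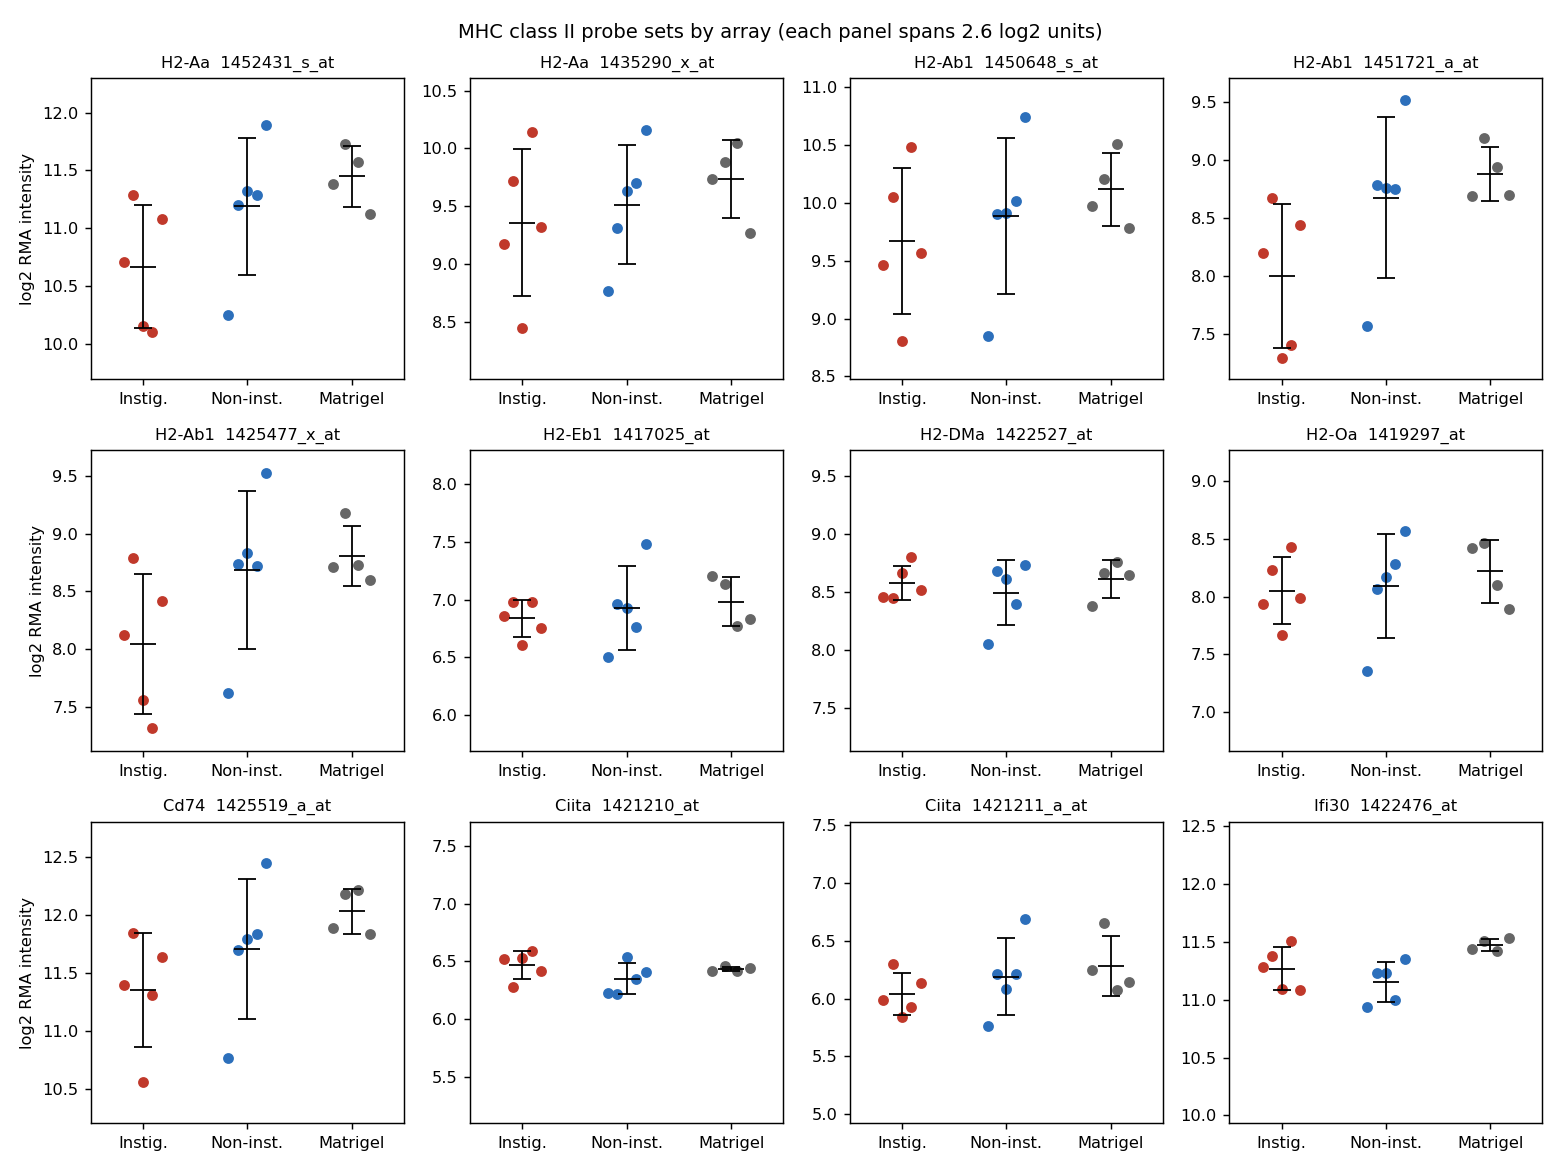
Log2 RMA intensity of the 12 class II probe sets on each array (points, left to right by replicate number), for Instigator (n = 5), Non-instigator (n = 5) and Matrigel (n = 4), with the mean and SD in black. Every panel spans the same log2 distance; Instigator arrays lie below all Matrigel arrays at H2-Ab1 1451721_a_at, Non-instigator arrays below all Matrigel arrays at Ifi30, and the groups overlap elsewhere.

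For the alpha chain H2-Aa, probe set 1452431_s_at read 10.71, 11.29, 10.16, 10.10 and 11.08 in Instigator arrays, 10.25, 11.20, 11.32, 11.29 and 11.89 in Non-instigator arrays, and 11.38, 11.73, 11.57 and 11.12 in Matrigel arrays. Of the 5 Instigator arrays, only Instigator 2 reached into the Matrigel range, while 4 of the 5 Non-instigator arrays lay at or above the lowest Matrigel value and Non-instigator 1 lay far below it. The means were 10.67 ± 0.53 in Instigator (SD, n = 5), 11.19 ± 0.59 in Non-instigator (n = 5) and 11.45 ± 0.26 in Matrigel arrays (n = 4). The Instigator minus Matrigel difference was -0.78 (SE 0.30, 95% CI -1.42 to -0.15), an intensity 0.581 times that of the Matrigel arrays, with an unadjusted p of 0.0185 and a limma adjusted p of 0.442. Non-instigator minus Matrigel was -0.26 (SE 0.30), and Instigator minus Non-instigator -0.52 (SE 0.28, limma adjusted p = 0.813). Without Non-instigator 1 the Non-instigator minus Matrigel value was -0.025. A second H2-Aa probe set, 1435290_x_at, gave smaller differences of -0.38, -0.22 and -0.15 for the same 3 comparisons, each with an interval that spans 0.

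For the beta chain H2-Ab1, the brightest probe set, 1450648_s_at, read 9.46, 10.05, 8.81, 10.48 and 9.57 in Instigator arrays, 8.85, 9.90, 9.91, 10.02 and 10.74 in Non-instigator arrays, and 9.97, 10.21, 10.51 and 9.78 in Matrigel arrays. Both tumour groups spread wider than the Matrigel group and overlapped it, with Instigator 3 and Non-instigator 1 lowest and Non-instigator 5 highest. Its Instigator minus Matrigel difference was -0.45 (SE 0.34, limma adjusted p = 0.634), and -0.23 without Instigator 3. Probe set 1451721_a_at read 8.20, 8.67, 7.29, 7.40 and 8.44 in Instigator arrays, 7.57, 8.78, 8.76, 8.75 and 9.52 in Non-instigator arrays, and 8.69, 9.19, 8.94 and 8.70 in Matrigel arrays. Every Instigator array lay below every Matrigel array here, but the nearest pair, Instigator 2 and Matrigel 1, stood at 8.67 and 8.69. The difference was -0.88 (SE 0.34, 95% CI -1.61 to -0.15), with an unadjusted p of 0.0208 and a limma adjusted p of 0.442. The third probe set, 1425477_x_at, gave -0.76 (SE 0.33, unadjusted p = 0.0381, limma adjusted p = 0.469), with Instigator 2 at 8.79 inside the Matrigel range.

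The probe sets of 1 gene parted on 1 array. On Instigator 4, H2-Aa was the lowest of the 14 arrays by 1452431_s_at (10.10) and second only to Non-instigator 5 by 1435290_x_at (10.14). H2-Ab1 on the same array was among the highest by 1450648_s_at (10.48) and among the lowest by 1451721_a_at (7.40) and 1425477_x_at (7.32). Instigator 4 is the array with the large 5' to 3' gap in the control probe sets given above, and the part of that gap in the H2-Aa and H2-Ab1 values was not tested. Without Instigator 4, the Instigator minus Matrigel differences of the 5 probe sets drew together, at -0.64 and -0.57 for H2-Aa and at -0.65, -0.73 and -0.58 for H2-Ab1. On this array type the endings _s_at and _x_at mark probe sets with probes that can match a related sequence, and _a_at those that cover several transcripts of 1 gene.

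**Figure D2:**
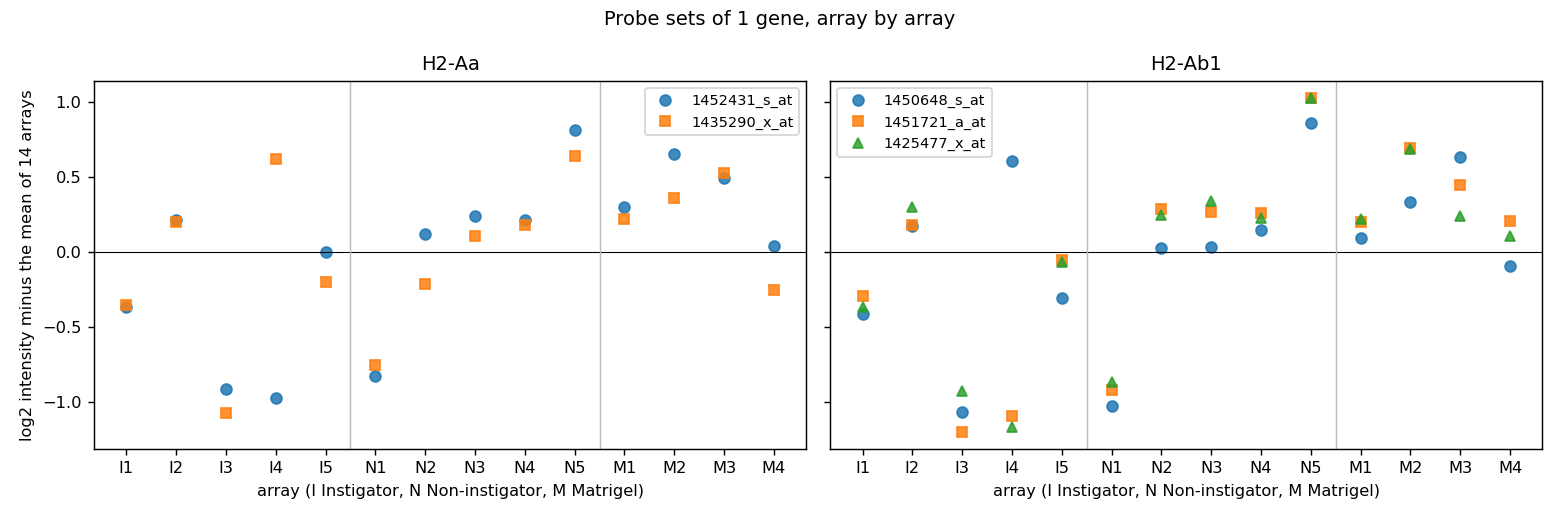
Log2 intensity minus that probe set's mean over the 14 arrays, for the 2 probe sets of H2-Aa (left) and the 3 of H2-Ab1 (right), array by array; I is Instigator, N Non-instigator and M Matrigel. The probe sets of each gene move together on the other arrays and split by more than 1 log2 unit on Instigator 4.

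H2-Eb1, the beta chain of H2-E, read 6.86, 6.98, 6.61, 6.98 and 6.75 in Instigator arrays, 6.50, 6.96, 6.93, 6.76 and 7.48 in Non-instigator arrays, and 7.20, 7.13, 6.77 and 6.83 in Matrigel arrays. The groups overlapped, and Non-instigator arrays held both the lowest and the highest value. Instigator minus Matrigel was -0.15 (SE 0.16, 95% CI -0.50 to 0.20).

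The invariant chain Cd74 followed H2-Aa closely. It read 11.40, 11.85, 10.56, 11.31 and 11.64 in Instigator arrays, 10.77, 11.70, 11.79, 11.84 and 12.45 in Non-instigator arrays, and 11.89, 12.18, 12.22 and 11.84 in Matrigel arrays. Of the Instigator arrays only Instigator 2, at 11.85, reached the lowest Matrigel value, 11.84, and Instigator 3 and Non-instigator 1 lay well below all others. The means were 11.35 ± 0.49 in Instigator (SD, n = 5), 11.71 ± 0.60 in Non-instigator (n = 5) and 12.03 ± 0.20 in Matrigel arrays (n = 4). Instigator minus Matrigel was -0.68 (SE 0.29, 95% CI -1.29 to -0.07), an intensity 0.624 times that of the Matrigel arrays, with an unadjusted p of 0.0313 and a limma adjusted p of 0.449. Non-instigator minus Matrigel was -0.32 (SE 0.29), and Instigator minus Non-instigator -0.36 (SE 0.27), neither larger than the spread between arrays. Without Non-instigator 1 they were -0.085 and -0.59, and without Instigator 3 the second was -0.16.

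The peptide-loading genes had smaller differences. H2-DMa, the alpha chain of the peptide exchanger, read 8.46, 8.45, 8.66, 8.80 and 8.52 in Instigator arrays, 8.05, 8.68, 8.61, 8.40 and 8.73 in Non-instigator arrays, and 8.38, 8.66, 8.76 and 8.65 in Matrigel arrays. Non-instigator 1 was lowest and the other arrays of all groups lay between 8.38 and 8.80, and Instigator minus Matrigel was -0.03 (SE 0.14, 95% CI -0.32 to 0.25). H2-Oa, the alpha chain of the inhibitor of H2-DM, read 7.94, 8.23, 7.67, 8.43 and 7.99 in Instigator arrays, 7.36, 8.07, 8.17, 8.28 and 8.57 in Non-instigator arrays, and 8.42, 8.46, 8.10 and 7.89 in Matrigel arrays. The 3 groups overlapped, with Non-instigator 1 lowest and Non-instigator 5 highest, and Instigator minus Matrigel was -0.17 (SE 0.21, 95% CI -0.62 to 0.29).

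Ifi30, the thiol reductase, had another pattern over the groups. It read 11.28, 11.38, 11.09, 11.51 and 11.08 in Instigator arrays, 10.94, 11.23, 11.23, 11.00 and 11.35 in Non-instigator arrays, and 11.44, 11.51, 11.42 and 11.53 in Matrigel arrays. All 5 Non-instigator arrays lay below all 4 Matrigel arrays, and 4 of the 5 Instigator arrays did, Instigator 4 being the exception. The means were 11.15 ± 0.17 in Non-instigator (SD, n = 5) and 11.27 ± 0.19 in Instigator arrays (n = 5), against 11.47 ± 0.06 in Matrigel arrays (n = 4). Non-instigator minus Matrigel was -0.33 (SE 0.11, 95% CI -0.56 to -0.09), an intensity 0.798 times that of the Matrigel arrays. Its unadjusted p of 0.00898 ranked 40 among the 22626 probe sets, and its limma adjusted p was 0.986, so the difference did not pass. That unadjusted limma p was 0.0264 without Non-instigator 1 and 0.00381 with Instigator 5 counted as Non-instigator. Instigator minus Matrigel was -0.21 (SE 0.11, unadjusted p = 0.074, limma adjusted p = 0.52), and -0.27 without Instigator 4.

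Ciita itself was read by a pair of probe sets that did not follow each other. Probe set 1421210_at stayed between 6.28 and 6.59 in Instigator, 6.22 and 6.54 in Non-instigator and 6.42 and 6.46 in Matrigel arrays, a range over the 14 arrays of 0.37 that is wider than that of only 8.9% of probe sets. Probe set 1421211_a_at ran from 5.84 to 6.30 in Instigator, from 5.76 to 6.69 in Non-instigator and from 6.07 to 6.65 in Matrigel arrays, with Non-instigator 1 lowest and Non-instigator 5 highest. Instigator minus Matrigel was 0.03 (SE 0.09) at 1421210_at and -0.24 (SE 0.17, limma adjusted p = 0.603) at 1421211_a_at, so the sign of a Ciita difference depended on the probe set.

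**Figure D3:**
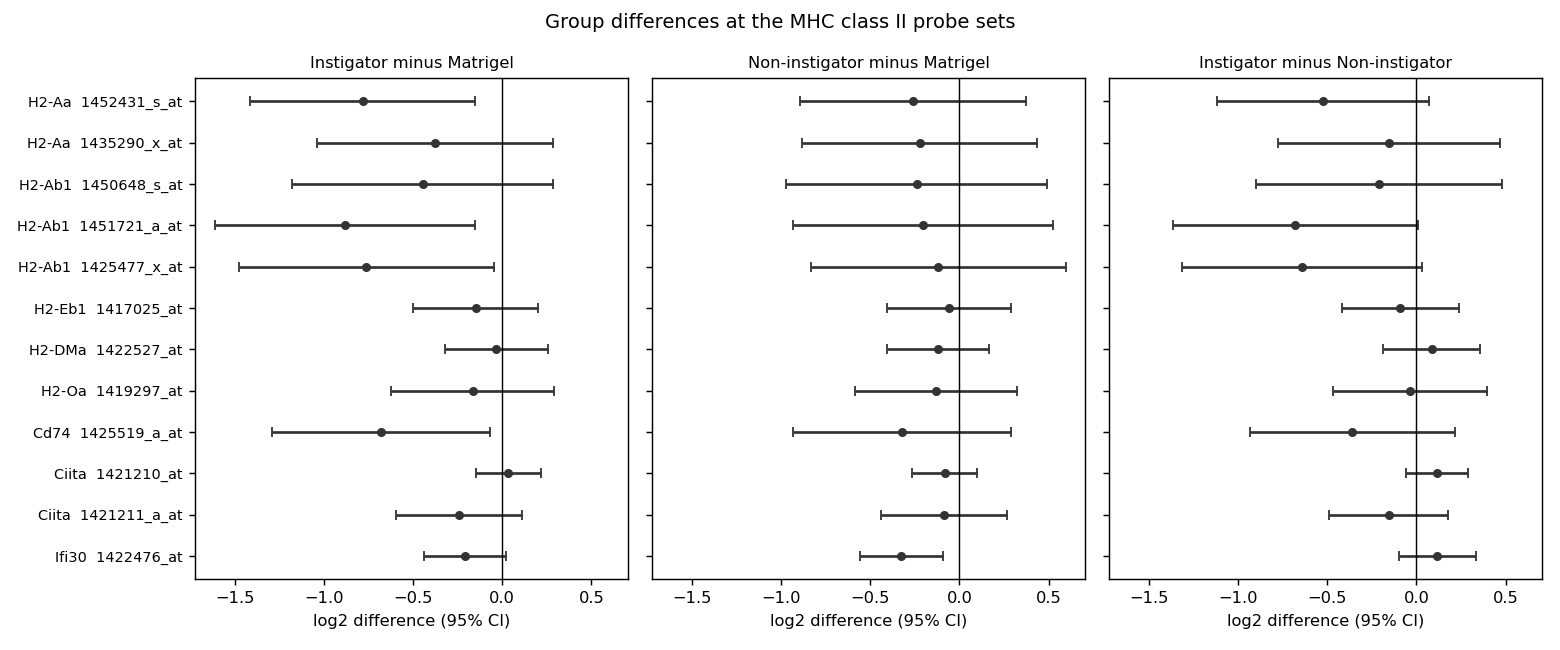
Log2 differences (points) with 95% confidence intervals from limma (bars) at the 12 class II probe sets for Instigator minus Matrigel (left), Non-instigator minus Matrigel (middle) and Instigator minus Non-instigator (right). The interval lies wholly below 0 for H2-Aa 1452431_s_at, H2-Ab1 1451721_a_at and 1425477_x_at and Cd74 on the left and for Ifi30 in the middle; no adjusted p is below 0.05.

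Counted over the 12 probe sets, 11 had a lower mean in Instigator than in Matrigel arrays, with a median difference of -0.31, beside 57.2% of all probe sets and a median of -0.03. After quantile normalization or median centring 10 of the 12 were lower, H2-DMa having turned. At an unadjusted p under 0.05, 4 of 12 were lower, where 7% of all probe sets were. The 4 probe sets stand for only 3 genes, and H2-Aa, H2-Ab1 and Cd74 are not independent of each other. Groups that did not overlap, with Instigator lower, were found at 1 of 12, against 1.68% of all probe sets. The count of 4 rested on single arrays: it was 0 of 12 without Matrigel 2 (5.96% of all probe sets), 1 of 12 without Instigator 3 (6.65% of all) and 2 of 12 without Matrigel 3, where the share of all probe sets was itself lower, at 3.69%. Without Instigator 4 and Matrigel 3 together it was 1 of 12 (Ifi30, at -0.29), with 3.39% of all probe sets, and all 12 class II differences were below 0, with a median of -0.38. Without Instigator 3 the median was -0.18.

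Between Non-instigator and Matrigel arrays all 12 differences were below 0, with a median of -0.17, beside 63.8% of all probe sets and a median of -0.04. Only Ifi30 was lower at an unadjusted p under 0.05, 1 of 12 where 1.51% of all probe sets were, and only Ifi30 had groups that did not overlap, 1 of 12 where 0.61% did. Without Non-instigator 1 the differences below 0 numbered 6 of 12 and the median was 0.01. The median was -0.10 without Matrigel 2, -0.25 without Matrigel 4 and -0.35 without Non-instigator 5. After quantile normalization 11 were below 0, H2-Eb1 having turned. This comparison shares its 4 Matrigel arrays with the one above, so the signs of both are tied.

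Between Instigator and Non-instigator arrays, which bore tumours of matched size, 9 of the 12 differences were below 0, with a median of -0.16, beside 44.2% of all probe sets and a median of 0.02. None of the 12 passed an unadjusted p of 0.05 in the lower direction, where 3.36% of all probe sets did, and groups with Instigator lower did not overlap at 0 of 12, against 0.446% of all. The largest differences were those of H2-Ab1, -0.68 (SE 0.32) at 1451721_a_at and -0.64 (SE 0.32) at 1425477_x_at, both with a limma adjusted p of 0.813. Here too the counts moved with single arrays. Without Non-instigator 1 the unadjusted count was 4 of 12 (5.02% of all probe sets) and the median -0.30, without Instigator 2 the count was 3 of 12 (4.18% of all), and without Instigator 5 it was 2 of 12 (4.91% of all). With all arrays kept it was 1 of 12 (3.25% of all) with trend and robust variance estimation. Without Non-instigator 5 the median was 0.01 with 5 of 12 below 0, and without Instigator 3 it was -0.01 with 6 of 12 below 0. The median was -0.24 without Instigator 4. With Instigator 5 counted as its description has it, as a Non-instigator array, 3 of 12 were lower by that criterion beside 5.61% of all probe sets, and H2-Aa differed by -0.61 (SE 0.27, limma adjusted p = 0.519).

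Arrays differed widely from each other, within a group as well as between groups. Non-instigator 5 was the highest of the 14 arrays at 9 of the 12 probe sets, Non-instigator 1 the lowest at 5 and Instigator 3 the lowest at 4. From the lowest to the highest of the 14 arrays, Instigator 3 and Non-instigator 5, H2-Ab1 spanned 2.23 on the log2 scale at 1451721_a_at. This 4.7-fold range was wider than that of 98.4% of all probe sets. Within the Non-instigator arrays alone it read from 7.57 to 9.52. The other ranges given here are also over all 14 arrays. Cd74 spanned 1.89 and H2-Aa 1.79 at 1452431_s_at. H2-Oa spanned 1.21, H2-Eb1 0.98, H2-DMa 0.75 and Ifi30 0.59, the last a range wider than that of 35.2% of probe sets.

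B cell genes varied over the arrays with the invariant chain gene Cd74. In a family of 19 relations of Cd74 over the 14 arrays, Cd79a, which encodes a signalling chain of the B cell receptor, had a Pearson r of 0.97 and a Spearman rho of 0.97, each with a permutation p of 1e-05, the smallest that the permutations can give, and an adjusted p of 9.5e-05. Without Instigator 3 and Non-instigator 1, the arrays farthest from the median of Cd74, r was 0.93, and with each group's mean taken off it was 0.96. For Ms4a1, the B cell antigen CD20, r was 0.91 and rho 0.85 (permutation, adjusted p = 0.000127 and 0.000608), and r was 0.74 without both arrays. For Spib, a transcription factor of B cells and plasmacytoid dendritic cells, r was 0.87 and rho 0.89 (permutation, adjusted p = 0.000532 and 0.000285), and r was 0.85 without both. All points share the array and its RNA, and arrays of 3 groups are pooled in each r.

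Among the class II genes, H2-Aa had an r of 0.94 and a rho of 0.95 with Cd74 (permutation, adjusted p = 9.5e-05 each), and r was 0.93 without both arrays. H2-Oa had an r of 0.76 and a rho of 0.67 (permutation, adjusted p = 0.00437 and 0.0268). Its r was 0.43 without both but 0.9 without Instigator 4 and Matrigel 3, so that relation depended on which arrays were kept. For H2-Ab1 at its brightest probe set the values were 0.85 and 0.78 (permutation, adjusted p = 0.000887 and 0.00538), with r at 0.59 without both, and at 0.98 without Instigator 4 and Matrigel 3. H2-Eb1 gave 0.72 and 0.62 (permutation, adjusted p = 0.00967 and 0.0414), and r was 0.51 without both and 0.85 without Instigator 4 and Matrigel 3. H2-DMa, with an r of 0.39 and a rho of 0.13, Ifi30, with 0.54 and 0.48, and Ciita, at -0.07 and -0.29, did not pass (permutation, adjusted p of r = 0.229, 0.0733 and 0.811, of rho = 0.66, 0.137 and 0.356). The Ciita values are those of its brightest probe set, 1421210_at. The other Ciita probe set, 1421211_a_at, had an r of 0.83 with Cd74, and of 0.9 without Instigator 4 and Matrigel 3. With Cd74, r was 0.81 for the other H2-Aa probe set, 1435290_x_at. It was 0.94 and 0.9 for the H2-Ab1 probe sets 1451721_a_at and 1425477_x_at. The relations of these further probe sets were outside the family and were not tested.

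**Figure D4:**
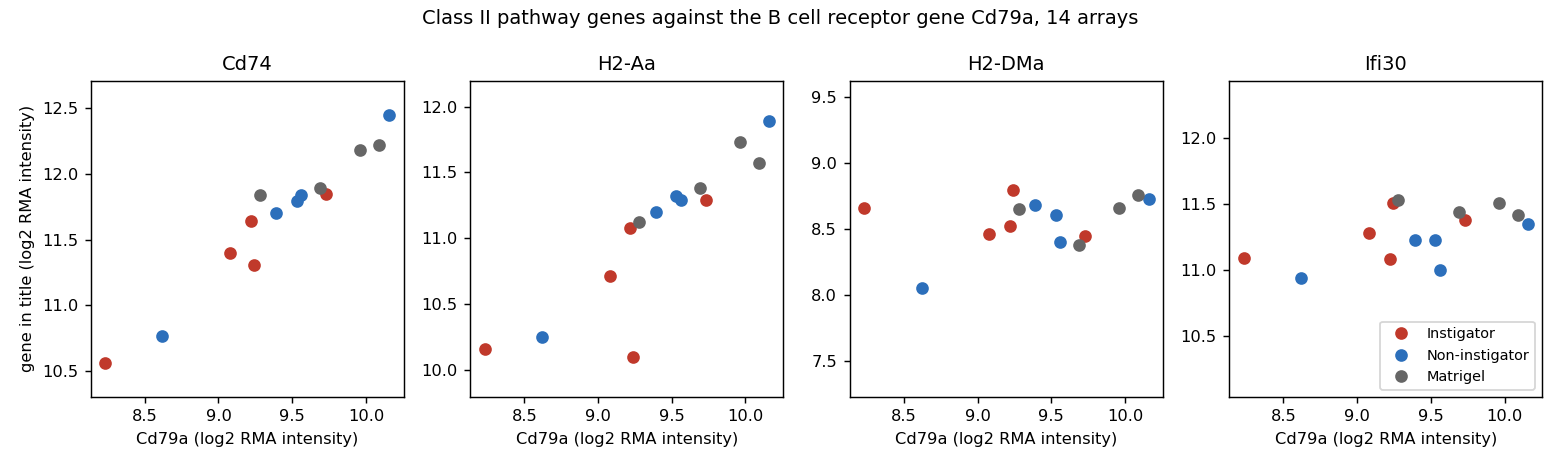
Log2 RMA intensity of Cd74, H2-Aa, H2-DMa and Ifi30 (vertical axes, same span in each panel) against that of Cd79a (horizontal axes) on the 14 arrays, coloured by group. Cd74 rises with Cd79a across arrays of all groups, and H2-Aa does so apart from Instigator 4. H2-DMa and Ifi30 cover a smaller range, on which a relation with Cd79a is hard to see. Of these genes, only Cd74 was tested against Cd79a.

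Markers of other cell types gave a mixed account. The conventional dendritic cell gene Itgax, which encodes CD11c, had an r of 0.45 and a rho of 0.47 with Cd74 (permutation, adjusted p = 0.16 and 0.137); r was 0.07 without Instigator 3 and Non-instigator 1, and 0.72 without Instigator 4 and Matrigel 3. Csf1r, the macrophage growth factor receptor, had an r of -0.52 and a rho of -0.64 (permutation, adjusted p = 0.108 and 0.0414), with r at -0.66 and -0.80 after the same removals. Kit had an r of -0.60 and a rho of -0.32 (permutation, adjusted p = 0.0501 and 0.317), with r at -0.29 and -0.64. Of the 12 genes in this family besides the class II genes named at the outset, only Cd79a, Cd79b, Ms4a1 and Spib passed in both measures.

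Since the arrays read sorted but mixed marrow cells, fewer cells of a type and less RNA per cell cannot be told apart. In the B cell marker list 13 of 16 genes were measured, and 12 of them had lower means in Instigator than in Matrigel arrays, with a median difference of -0.44 and 3 lower at an unadjusted p under 0.05. The mean of that list ran from 7.78 to 8.87 in Instigator arrays, from 8.06 to 9.33 in Non-instigator arrays and from 8.56 to 9.15 in Matrigel arrays. Instigator 3 and Non-instigator 1 were again lowest in their groups, and Non-instigator 5 highest in its group. The same held for the pre-B cell, plasma cell, NK cell and both dendritic cell lists described below, so this order was not particular to B cells. It did not hold for the monocyte and macrophage or the neutrophil list. No gene of the pre-B cell, plasma cell, T cell or NK cell lists was among the relations of Cd74 above. Cd79a read 9.08, 9.73, 8.23, 9.24 and 9.22 in Instigator arrays, against 9.69, 9.96, 10.09 and 9.28 in Matrigel arrays. Its Instigator minus Matrigel difference of -0.65 (SE 0.30, limma adjusted p = 0.478) was close in size to that of Cd74. The part of B cells in the class II differences was not tested.

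Other lists of cells that carry class II gave 7 of 8 measured plasmacytoid dendritic cell genes below 0 in Instigator against Matrigel arrays (median -0.69, 6 lower at an unadjusted p under 0.05) and 8 of 11 conventional dendritic cell genes (median -0.27, 5 lower). In the conventional dendritic cell list the lectin gene Cd209a differed by -1.11 (SE 0.33, limma adjusted p = 0.439), while Itgax, Flt3 and Batf3 differed by 0.02, -0.04 and 0.20. The plasmacytoid list's array means ran from 8.42 to 9.38 in Instigator arrays, from 8.53 to 9.57 in Non-instigator arrays and from 9.24 to 9.63 in Matrigel arrays. The monocyte and macrophage list had 6 of 13 below 0 and a median of 0.01, and Csf1r stood highest on Instigator 4, at 12.27. Below 0 were also 5 of 6 pre-B cell genes (median -0.17), 7 of 7 plasma cell genes (-0.49), 6 of 7 T cell genes (-0.24) and 6 of 6 NK cell genes (-0.10), against 1 of 9 neutrophil genes (0.20) and 0 of 6 basophil and mast cell genes (0.48). Over all 12393 genes, 6703 were below 0 with a median of -0.02, and 640 were lower at an unadjusted p under 0.05. None of the list genes passed the adjusted threshold in any comparison.

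The 10 other genes whose pattern over the 14 arrays was most like the mean of the 8 measured class II genes, each centred on its own mean, were Tnfrsf13c (Pearson r 0.967), Slc41a2 (0.96), Rab33b (0.959), Ralgps2 (0.944), Cd79a (0.942), Mtss1 (0.941), Ccr9 (0.937), Ighv14-2 (0.934), Fcer2a (0.927) and Pde4b (0.925), out of 12385 ranked. Tnfrsf13c encodes the BAFF receptor of B cells, Ighv14-2 an immunoglobulin heavy chain variable segment, Fcer2a the B cell antigen CD23 and Ccr9 a chemokine receptor of plasmacytoid dendritic cells and T cell precursors. With group means taken off, all 10 had an r between 0.914 and 0.963.

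The regulators of class II showed no call. Of 12 measured promoter factors and regulators, 9 were below 0 in Instigator against Matrigel arrays with a median of -0.12, and Spib (-0.77, SE 0.28) and Nfyb (-0.23, SE 0.09), a subunit of the Y box factor NF-Y, had an unadjusted p under 0.05 (limma adjusted p = 0.442 each). Rfx5, a DNA-binding subunit of the X box complex RFX, differed by -0.28 (SE 0.13, limma adjusted p = 0.49), and the B cell and dendritic cell factor Irf4 by -0.74 (SE 0.37, limma adjusted p = 0.507). The interferon gamma pathway, which induces Ciita outside professional antigen-presenting cells, had 5 of 12 measured genes below 0, 7 above and a median of 0.07. Its receptor genes went apart, Ifngr1 at 0.43 (SE 0.21) and Ifngr2 at -0.52 (SE 0.27), neither with an adjusted p under 0.05.

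Among the 9 processing genes, all measured, 7 were below 0 in Instigator against Matrigel arrays, with a median of -0.07. Ctsl, a cathepsin that degrades the invariant chain in thymic epithelium, differed by -0.58 (SE 0.21, limma adjusted p = 0.442), and Ctss, the cathepsin that does so in B cells and dendritic cells, by -0.07 (SE 0.16). Of the other class II region genes, 5 of 7 measured were below 0 (median -0.19). Psmb8, Psmb9, Tap1 and Tap2 among them are counted again in the class I list below. H2-Ea, the alpha chain that pairs with H2-Eb1, differed by -0.63 (SE 0.29, limma adjusted p = 0.479) and H2-DMb2, a second H2-DM beta chain gene, by -0.52 (SE 0.19, limma adjusted p = 0.442). The co-stimulation list had 6 of 7 below 0 (median -0.15), with Cd83, a dendritic and B cell activation antigen that stabilises class II at the surface, at -0.86 (SE 0.39, limma adjusted p = 0.478) and Cd274, which encodes PD-L1, at -0.61 (SE 0.20, limma adjusted p = 0.439). Of the trafficking genes only 3 of 6 were measured, with 2 below 0; the tetraspanin Cd37 differed by -0.28 (SE 0.17).

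The MHC class I presentation genes, which serve CD8+ T cells and are carried by nearly all cells, had 5 of 12 measured genes below 0, 7 above, a median of 0.06 and none with an unadjusted p under 0.05. H2-K1 differed by 0.09 (SE 0.09), H2-D1 by 0.13 (SE 0.12) and the light chain B2m by 0.04 (SE 0.06) between Instigator and Matrigel arrays. The largest class I difference was that of Pdia3, at -0.37 (SE 0.26). Class II differences were -0.78 and -0.38 at the probe sets of H2-Aa and -0.68 for Cd74. They were smaller for H2-Oa (-0.17), H2-Eb1 (-0.15) and H2-DMa (-0.03). The difference between the class I and class II lists was not tested.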

How the data were processed

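The deposited table holds linear expression intensity for 22690 probe sets on 14 Affymetrix arrays, which the authors had computed by RMA (affy, R 2.11.0), per the submitters' processing notes. Per the labels' protocols, RNA was labelled with the NuGen Ovation biotin system. Log2 was taken. Dropping 64 array controls left 22626 probe sets, of which the platform annotation gives 20380 to 1 symbol, 691 to several and 1555 to none. One limma 3.58.1 fit (R 4.3.3; lmFit, contrasts.fit, eBayes) held the 3 groups, with Benjamini-Hochberg adjustment over all 22626 probe sets and a threshold of 0.05. The number of arrays limits the precision. The median intensity per array was 118.9 to 145.0. Correlation p-values came from 100000 permutations, two-sided (scipy 1.17.1). The fit was tested on simulated data. All class II genes were named at each probe set of their own, the brightest standing for the gene. From each other list up to 4 genes were named by size of difference, besides cell markers, and Ctss, Nfyb, Rfx5, B2m, H2-K1, H2-D1 and Cd37 for their role, after their values were seen. The class II genes, the lists and the rules were chosen with earlier results of these data known. The alternatives were each array left out, other normalizations, other variance models, a replicate block, the doubtful arrays removed and Instigator 5 moved.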

Additional observations from a re-analysis of the deposited data

How the results depend on the processing

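No class II probe set passed the adjusted threshold under any of 24 alternatives. Under a further one, H2-Aa, H2-Ab1 and Ciita were each read as the mean of their probe sets, and none passed. The smallest limma adjusted p of a class II gene was 0.269 (H2-Aa, Instigator minus Matrigel, with Instigator 5 counted as Non-instigator). For Instigator minus Matrigel, H2-Aa, H2-Ab1, H2-Eb1, H2-Oa, Cd74 and Ifi30 stayed below 0 in every alternative run, Cd74 between -0.81 and -0.48. Signs turned for small differences, and the cause was not tested. For Instigator minus Matrigel, H2-DMa was 0.005 after quantile normalization and 0.042 after median centring, and ran from -0.111 to 0.016 with 1 array left out. Ciita was -0.018 with array weights, -0.002 without Instigator 4 and Matrigel 3, and -0.103 as the mean of its probe sets. For Non-instigator minus Matrigel, H2-Eb1 was 0.008 after quantile normalization. With 1 array left out, H2-Eb1 ran from -0.197 to 0.049, H2-Ab1 from -0.452 to 0.021 and H2-Oa from -0.25 to 0.052, each highest without Non-instigator 1. For Instigator minus Non-instigator, H2-DMa was -0.026 with array weights and Ciita -0.019 as the mean of its probe sets. With 1 array left out, H2-DMa ran from -0.026 to 0.145, H2-Ab1 from -0.467 to 0.009, H2-Eb1 from -0.198 to 0.048 and H2-Oa from -0.219 to 0.084.

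With the replicate block, the median class II difference was -0.385 for Instigator minus Matrigel (-0.31 with the block as a random effect), -0.285 for Non-instigator minus Matrigel and -0.155 for Instigator minus Non-instigator, with 0 calls. With the fixed block the count lower at an unadjusted p under 0.05 was 5, 1 and 3 of 12 for these comparisons, beside 8.55%, 2.06% and 3.7% of all probe sets; without it the last count was 0 of 12. Deviations of arrays with the same number correlated at -0.201 to 0.269. Arrays with different numbers were not compared in this way, so these values cannot settle whether a shared number marks a pairing. The arrays give no background level, so which probe sets are near it is unknown.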
